A study of Homo sapiens with 6 samples.

Results

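The genes described here are STK40, TRIB1, TRIB2 and COP1, which the deposited table lists under its older symbol RFWD2. They are 4 of the 59074 genes in the table and were looked up by symbol in all 6 libraries. STK40 was chosen from its change on HOTAIRM1 knock-down, since it was among the genes with the strongest increase over the cell lines, and the other genes were selected on their kinship with it or their binding to the same ligase, with all values known. The change of these genes on knock-down is therefore described without a test.

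RNA sequencing was performed on 3 glioblastoma cell lines, LN-229 (LNT229 in the sample titles), T98G and U251. Each line was transfected with non-target siPOOLs (siControl) or with HOTAIRM1-specific siPOOLs (siHOTAIRM1), which are pools of small interfering RNAs, and RNA was isolated 72 h later. There was 1 library per line and condition, without replicate cultures, so the lines stand as replicates and p-values measure only the spread between these libraries. The comparison asked which transcripts differ when HOTAIRM1, a long non-coding RNA transcribed from the HOXA locus, is depleted by a transient knock-down.

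Tribbles proteins are pseudokinases, proteins with a kinase fold that have lost most or all catalytic activity. They serve as adaptors: the pseudokinase domain holds a substrate, and a short motif at the carboxy terminus binds the WD40 domain of COP1, a RING-type ubiquitin ligase that works with the DET1, DDB1 and CUL4 complex. The best known substrate of TRIB1 and TRIB2 is the transcription factor C/EBP alpha, and COP1 also acts on JUN and on ETS family factors. STK40, also known as SgK495, is a pseudokinase related to the Tribbles family that carries a COP1-binding motif of the same kind.

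Sequence upstream of the genes is shown because STK40 and COP1 are binding partners whose listed RNA levels moved in opposite directions after knock-down. STK40 was higher and COP1 lower in each line as listed. Relative to the median of all tested genes, however, the log2 change of COP1 in T98G was -0.014. The promoters are the 250 bases before the start of the gene in RefSeq (GRCh38.p14), written 5′ to 3′ on the strand of the gene, with the core ETS motif CGGAAG, or CTTCCG on the other strand, in capitals. RefSeq promoters were matched for STK40 (chr1:36385925-36386174, minus strand), COP1 (chr1:176207287-176207536, minus strand) and TRIB2 (chr2:12716686-12716935, plus strand).
STK40: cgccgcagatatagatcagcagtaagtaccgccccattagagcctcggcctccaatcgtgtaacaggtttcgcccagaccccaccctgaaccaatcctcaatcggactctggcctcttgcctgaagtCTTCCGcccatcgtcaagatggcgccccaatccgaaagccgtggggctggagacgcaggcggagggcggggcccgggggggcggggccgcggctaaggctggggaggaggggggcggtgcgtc
COP1: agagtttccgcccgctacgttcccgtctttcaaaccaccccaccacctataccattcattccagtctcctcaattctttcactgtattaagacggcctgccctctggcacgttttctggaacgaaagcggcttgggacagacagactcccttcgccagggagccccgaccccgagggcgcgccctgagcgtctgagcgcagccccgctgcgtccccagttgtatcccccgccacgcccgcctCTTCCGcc
TRIB2: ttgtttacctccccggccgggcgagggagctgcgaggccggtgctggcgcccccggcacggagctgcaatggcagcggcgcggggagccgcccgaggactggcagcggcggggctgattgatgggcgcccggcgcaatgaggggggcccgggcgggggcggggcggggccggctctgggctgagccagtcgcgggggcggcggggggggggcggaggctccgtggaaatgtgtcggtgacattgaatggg

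The GC content of these windows was 66.0% for STK40, 62.0% for COP1 and 76.8% for TRIB2, against a median of 58.0% over 35116 RefSeq promoters of the same length. The ETS core was found 1 time before STK40 and 1 time before COP1, in both cases as CTTCCG, and was not found before TRIB2. Of all promoters, 16.5% held it on either strand. The AP-1 motif TGANTCA (in 6.57% of all promoters), the cAMP response element TGACGTCA (1.65%) and the C/EBP motif TTGCNNAA (9.05%) were searched on both strands and had no match in the 3 windows. A match of letters is a description and not a binding site.

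The paper proposes that HOTAIRM1 may limit the availability of the microRNA miR-17-5p, with the binding taken from earlier reports. It found no inverse correlation of this microRNA with HOTAIRM1 in glioblastomas. The 3′ untranslated regions were searched for the seed match of miR-17-5p because of this proposal. The mature microRNA (chr13:91350618-91350640, plus strand, GRCh38.p14) is shown from RefSeq with the seed, bases 2 to 8, in capitals.
hsa-miR-17-5p: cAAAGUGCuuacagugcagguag

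No 7-base match to the seed (GCACTTT) was found in the annotated 3′ untranslated region of the canonical transcript of any of the 4 genes. These regions measure 2127 bases in STK40, 1932 bases in TRIB1, 1940 bases in TRIB2 and 322 bases in COP1. Other transcripts and other forms of seed match were not searched. Over 11841 tested genes with an annotated region, whose median length was 1424 bases, 26.1% held the 7-base match and 5.83% the 8-base match GCACTTTA.

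The depth recovered from the steps between low values was 52.3 to 104 M reads per library, and 3 reads, taken as the smallest detectable level, corresponded to 0.0289 to 0.0574 CPM (counts per M reads). HOTAIRM1 went from 1.99 to 0.952 CPM in LN-229, from 3.49 to 2.15 CPM in T98G and from 1.27 to 0.623 CPM in U251, lower in 3 of 3 lines (log2 change -0.54, SE 0.12, limma adjusted p = 0.0146). On the scale of log2(CPM + 1), the median gene of the 14294 tested changed by 0.011 in LN-229, by -0.19 in T98G and by -0.027 in U251, so changes are also given relative to this median. The listed genes made up 42.9 to 67.2% of the full scale of CPM, and the most abundant RNA of every library, the signal recognition particle RNA RN7SL1, was highest in siControl-transfected U251 at 60589 CPM. Their part in the changes of the genes described here was not tested. Of the astrocytic and glioma markers, VIM was present in all libraries (254 to 1794 CPM). In T98G, GFAP (0.0435 and 0.0551 CPM), SOX2 (at most 0.0146 CPM) and S100B (listed at 0 reads) were near or below the smallest detectable level. NES was at 0.956 and 0.866 CPM in T98G, beside 329 to 507 CPM in the other lines, and OLIG2 at most at 1.69 CPM in any library. The 6 astrocytic and glioma markers summed to 405 to 2260 CPM in siControl and 255 to 1955 CPM in siHOTAIRM1 libraries. In T98G this sum was almost only VIM, with 403 of 405 CPM in siControl and 254 of 255 CPM in siHOTAIRM1. The 6 markers of other cell types summed to 10.5 to 26.9 CPM in siControl and 4.32 to 14.7 CPM in siHOTAIRM1 libraries. Of the latter, 3 of 6 were tested. SYT1 (limma adjusted p = 0.00138) and CD68 (adjusted p = 0.0223) fell, beside a share of 2% of all tested genes called in either direction. CD68 fell in T98G and U251 but not in LN-229 (0.785 and 0.801 CPM). Neither call held without T98G, without the cell line as a block or with no filter, where limma called 0 genes. MBP was slightly higher in each line (log2 change 0.12, SE 0.12, limma adjusted p = 0.610). RBFOX3 stayed at or below 0.00998 CPM and PTPRC at or below 0.0870 CPM. Each library is RNA of a cultured cell line, so these markers are not read as a presence or loss of other cell types. In RNA of whole cultures, fewer cells of the line that express a gene and less RNA per cell cannot be told apart.

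All 4 genes passed the filter on low values (a mean of at least 1 CPM). STK40 was the member with the clearest change: its RNA was higher after knock-down in each line, and every siHOTAIRM1 library exceeded every siControl library. TRIB2 was also higher in each line, and TRIB1 was higher in LN-229 and U251 and lower in T98G. COP1 was lower in each line as listed, but in T98G it moved as the median gene did. Of the 4 genes, 1 (STK40) thus had all siHOTAIRM1 libraries above all siControl libraries, and over all tested genes the share was 0.749%. Since these values selected STK40, nothing is read from that count.

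**Figure D1:**
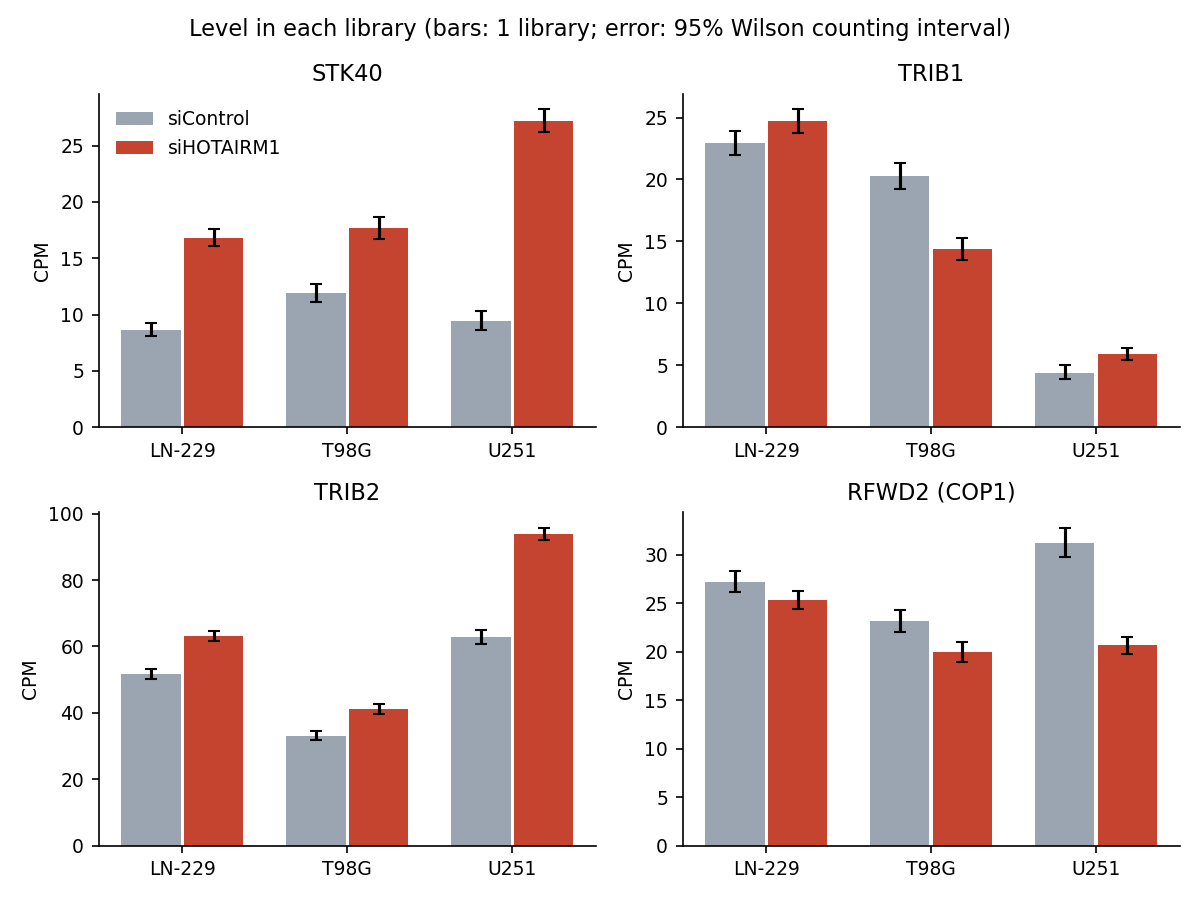
Level of each gene in CPM (vertical axis, from 0) in each of the 6 libraries, by cell line; gray bars are siControl and red bars siHOTAIRM1, 1 library per bar, and error bars are 95% Wilson counting intervals. STK40 ranged from 8.64 to 11.9 CPM in siControl and from 16.8 to 27.2 CPM in siHOTAIRM1 libraries, without overlap (values that selected the gene), whereas the conditions overlapped for the other genes.

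STK40 (ENSG00000196182) lies on chromosome 1 from 36339624 to 36385924 (hg38, GENCODE v44, minus strand), and its canonical transcript has 11 exons and 3645 bases. In siControl libraries its level was 8.64 CPM in LN-229 (95% Wilson interval 8.05 to 9.28), 11.9 CPM in T98G (11.1 to 12.7) and 9.42 CPM in U251 (8.62 to 10.3). In siHOTAIRM1 libraries it was 16.8 CPM (16.1 to 17.6), 17.7 CPM (16.7 to 18.7) and 27.2 CPM (26.2 to 28.2) in the same order. These levels rest on 492 to 2751 reads, and the intervals cover counting error only, not the spread between cultures. The lowest siHOTAIRM1 library, LN-229, was above the highest siControl library, T98G.

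The mean of STK40 was 9.99 ± 1.70 CPM in siControl and 20.6 ± 5.75 CPM in siHOTAIRM1 libraries (SD, n = 3 lines each). Within a line, the ratio of siHOTAIRM1 to siControl was 1.95 in LN-229 (95% counting interval 1.79 to 2.12), 1.48 in T98G (1.36 to 1.62) and 2.89 in U251 (2.62 to 3.18). The change of log2(CPM + 1) was 0.89, 0.53 and 1.44, with a fitted value of 0.95 (SE 0.15) over the lines. The counting intervals of the 3 ratios do not overlap, with the largest ratio in U251 and the smallest in T98G. With the median of all genes subtracted, the changes were 0.88, 0.72 and 1.46. A larger change than that of STK40 was found for 29 tested genes of LN-229, 73 of T98G and 10 of U251, which places the gene in the upper tail of all 3 distributions. Since the gene was selected on this increase, nothing is read from that position.

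As a description, the fitted change of STK40 was 0.71 without U251, 0.98 without LN-229 and 1.16 without T98G, and 1.03 to 1.13 under the other scalings.

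**Figure D2:**
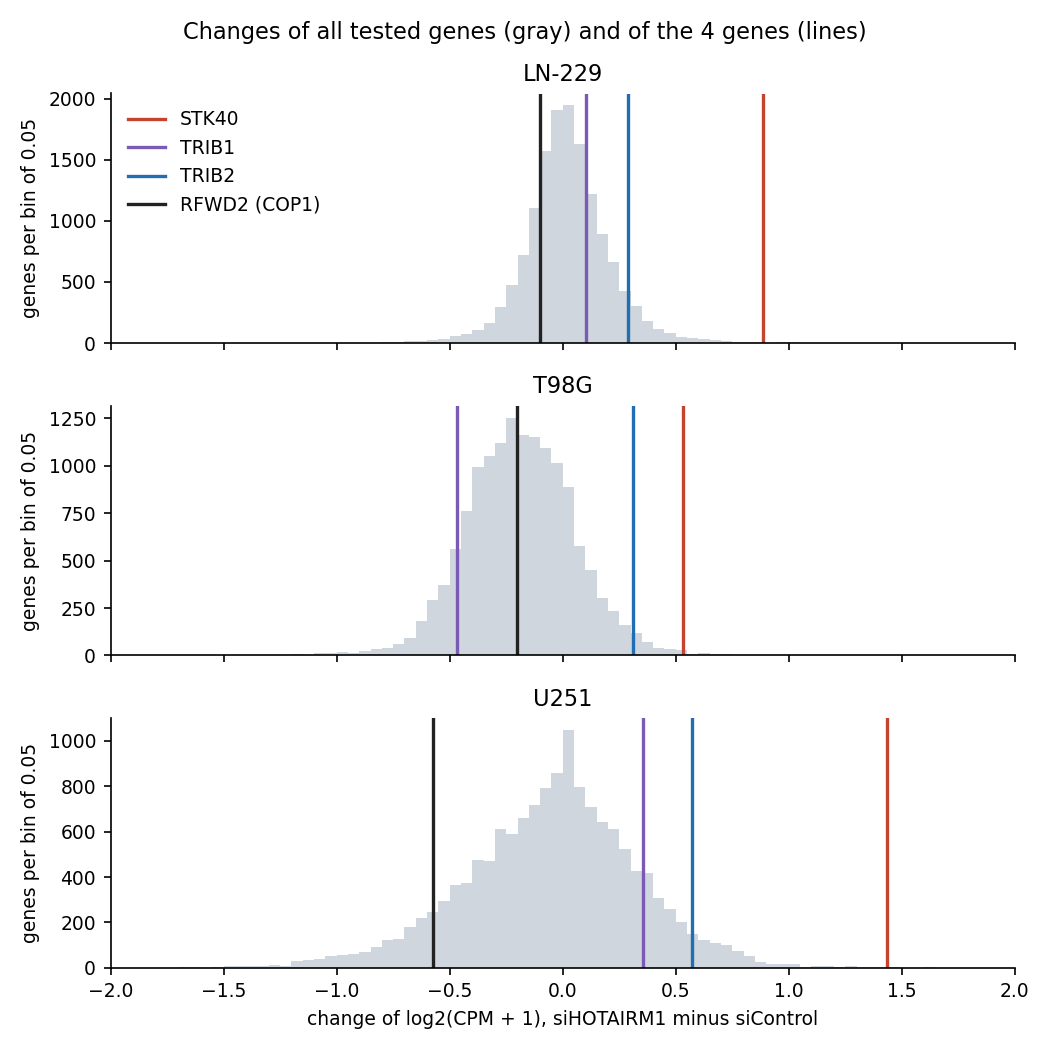
Distribution of the change of log2(CPM + 1), siHOTAIRM1 minus siControl (horizontal axis), over the 14294 tested genes in each cell line, as genes per bin of 0.05 (gray), with a vertical line for each of the 4 genes. STK40 lies in the upper tail in all 3 lines (0.89, 0.53 and 1.44, values that selected the gene), and the bulk of genes in T98G is shifted below 0 (median -0.19).

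TRIB2 (ENSG00000071575), a Tribbles pseudokinase known as an oncogene in myeloid leukaemia through C/EBP alpha, lies on chromosome 2 from 12716910 to 12742734 (hg38, plus strand; 3 exons, 4344 bases). Its level went from 51.6 to 63.2 CPM in LN-229, from 33.1 to 41.2 CPM in T98G and from 62.8 to 93.8 CPM in U251. Each line was higher after knock-down, but T98G lay below the other lines in both conditions, and the conditions overlapped. The ratios were 1.23 (1.18 to 1.27), 1.25 (1.18 to 1.32) and 1.49 (1.44 to 1.55), and the fitted change was 0.39 (SE 0.14). Relative to the median of all genes the changes were 0.28, 0.50 and 0.60. A larger change was found for 977 tested genes of LN-229, 325 of T98G and 668 of U251.

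TRIB1 (ENSG00000173334), the Tribbles member known for its part in hepatic lipid metabolism and myeloid differentiation, lies on chromosome 8 from 125430358 to 125438403 (hg38, plus strand; 3 exons, 3596 bases). It measured 22.9 CPM in siControl and 24.7 CPM in siHOTAIRM1 LN-229 cells, 20.2 and 14.4 CPM in T98G, and 4.40 and 5.91 CPM in U251. T98G was the line with the lower level after knock-down, and the U251 libraries were the lowest in either condition. The ratios were 1.08 (1.02 to 1.14), 0.709 (0.655 to 0.768) and 1.34 (1.15 to 1.56), so no counting interval includes 1 and the directions differ between lines. Relative to the median of all genes the changes were 0.09, -0.28 and 0.38, and the fitted change over the lines was near 0 (SE 0.15) with a sign that depended on the scaling.

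COP1 (RFWD2, ENSG00000143207), the ubiquitin ligase to which the pseudokinases bind, lies on chromosome 1 from 175944831 to 176207286 (hg38, minus strand; 20 exons, 2826 bases in the canonical transcript). It measured 27.2 CPM in siControl and 25.3 CPM in siHOTAIRM1 LN-229 cells, 23.1 and 19.9 CPM in T98G, and 31.2 and 20.7 CPM in U251. The level was lower in each line, and the conditions overlapped because siControl T98G lay below siHOTAIRM1 LN-229. The ratios were 0.931 (0.881 to 0.984), 0.862 (0.803 to 0.926) and 0.662 (0.620 to 0.706), and the fitted change was -0.29 (SE 0.14). Set against the median gene, the change was -0.11 for LN-229 and -0.55 for U251 but -0.014 for T98G, where COP1 moved as the median gene did. The fitted change was -0.21 with median centring, -0.15 with the listed genes rescaled and -0.18 with the protein-coding genes rescaled.

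**Figure D3:**
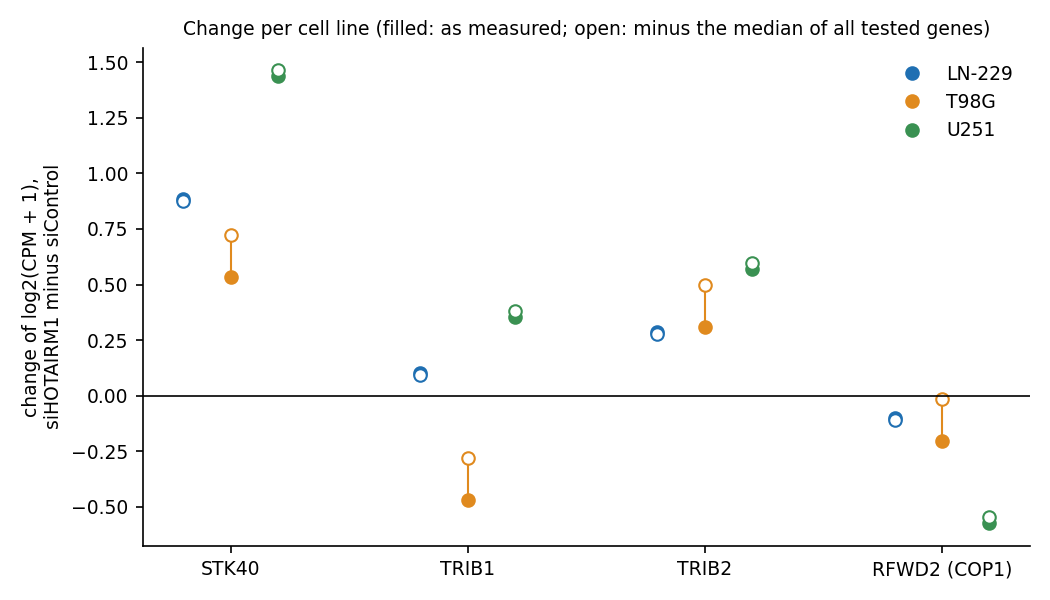
Change of log2(CPM + 1), siHOTAIRM1 minus siControl (vertical axis), of each gene in each cell line; filled points are the change as measured and open points the change minus the median of all tested genes. STK40 and TRIB2 lie above 0 in all 3 lines, RFWD2 (COP1) below 0, and TRIB1 on both sides, and the subtraction moves mainly T98G.

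A ratio of pseudokinase to COP1 RNA within 1 library does not depend on how that library was scaled. For STK40 the ratio of CPM values went from 0.318 to 0.664 in LN-229, from 0.515 to 0.886 in T98G and from 0.302 to 1.32 in U251, which is 2.09, 1.72 and 4.36 times the siControl ratio. It was higher in each siHOTAIRM1 library than in any siControl library. For TRIB2 the ratio to COP1 became 1.32, 1.45 and 2.26 times as high in LN-229, T98G and U251. For TRIB1 it became 1.16, 0.822 and 2.03 times as high, without a common direction. These ratios rest on the contrast that selected the genes and carry no test.

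Levels were compared between genes as CPM per kilobase of the canonical transcript. In siControl libraries the means over the lines were 11.3 for TRIB2, 9.62 for COP1, 4.41 for TRIB1 and 2.74 for STK40. TRIB2 ranged from 7.62 to 14.5 and COP1 from 8.19 to 11.1, so these neighbours in the order were not separated, and TRIB1 (1.22 to 6.37) enclosed the range of STK40 (2.37 to 3.27). In siHOTAIRM1 libraries the means were 15.2 for TRIB2, 7.78 for COP1, 5.64 for STK40 and 4.17 for TRIB1. STK40 (4.62 to 7.46) then stood above TRIB1 in T98G and U251 but not in LN-229, where TRIB1 was at 6.86. In U251, STK40 had been above TRIB1 in siControl as well (2.58 against 1.22).

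The cell lines themselves were then compared, a contrast that the selection did not use. For STK40, however, the line means include the siHOTAIRM1 libraries whose values selected the gene. TRIB1 and TRIB2 differed between the lines whereas STK40 and COP1 did not pass the threshold in any pair. The test was limma over all 14294 genes with condition as a term, adjusted over the genes and the 3 pairs of lines, and it takes the libraries of both conditions as the samples of a line, which are not replicate cultures. The share of all tested genes past the threshold was 55.5% for LN-229 against T98G, 60.5% for LN-229 against U251 and 63.7% for T98G against U251, so a difference between these lines was the rule and not particular to the genes described here. Of the 4 genes, 2 passed in each pair, TRIB1 and TRIB2.

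TRIB1 was highest in LN-229, with a mean of 23.8 CPM over both conditions, followed by T98G (17.3 CPM) and U251 (5.16 CPM). The difference was 2.02 on the log2 scale between LN-229 and U251 (95% interval 1.64 to 2.4, limma adjusted p = 1.47e-11) and 1.56 between T98G and U251 (1.18 to 1.95, adjusted p = 6.41e-09). All libraries of LN-229 and T98G lay above both U251 libraries, with a span from lowest to highest of 5.61 times over the 6 libraries. Between LN-229 and T98G the difference was 0.46 (0.08 to 0.84, limma adjusted p = 0.0354), a call that did not hold under 5 of the alternatives, beside those with a library left out. Without the siHOTAIRM1 library of T98G this last difference was 0.11 (adjusted p = 0.723), since that library holds the lower T98G level.

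TRIB2 showed another order, highest in U251 (78.3 CPM), then LN-229 (57.4 CPM) and T98G (37.2 CPM). T98G was below U251 by a log2 difference of -1.03 (-1.39 to -0.68, limma adjusted p = 5.38e-06), and LN-229 was above T98G by 0.61 (0.26 to 0.97, adjusted p = 0.00318). The latter call was lost without the siControl library of LN-229 (0.54, limma adjusted p = 0.0653) and with no condition term (0.61, adjusted p = 0.0501). All libraries of T98G lay below those of the other lines. LN-229 and U251 were the closest neighbours at -0.42 (-0.78 to -0.06, limma adjusted p = 0.0398), their libraries overlapped, and the call was lost under each other scaling, with a difference of -0.066 when the listed genes were rescaled to a common total.

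STK40 measured 12.7 CPM in LN-229, 14.8 CPM in T98G and 18.3 CPM in U251 over both conditions. In siControl alone the order was another, 8.64 CPM in LN-229, 11.9 CPM in T98G and 9.42 CPM in U251. The differences were -0.24 (-0.63 to 0.14, limma adjusted p = 0.274) for LN-229 against T98G, -0.39 (-0.77 to -0.0012, adjusted p = 0.0778) for LN-229 against U251 and -0.14 (-0.53 to 0.24, adjusted p = 0.534) for T98G against U251. The intervals reach -0.63, -0.77 and -0.53 in this order, so equal levels were not shown for any pair. Without the siControl library of U251, LN-229 against U251 was -0.75 and passed (adjusted p = 0.00591), as the remaining U251 library is the one with the strongest increase. COP1 measured 26.3 CPM in LN-229, 21.5 CPM in T98G and 26.0 CPM in U251. Its differences were 0.28 (-0.08 to 0.63, limma adjusted p = 0.175), 0.04 (-0.31 to 0.40, adjusted p = 0.845) and -0.23 (-0.59 to 0.12, adjusted p = 0.258) for the pairs in the same order. These intervals reach 0.63, 0.40 and -0.59, so equal levels were not shown for COP1 either. COP1 was the member with the narrowest span, 1.57 times from the lowest to the highest library.

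The remaining genes of the pathway were examined in lists by role, 37 genes in all, 3 of them in more than 1 list, and each was tested. None rose and 1 fell past the threshold, the COP9 signalosome subunit COPS4, beside a share of 2% of all tested genes called in either direction. An unadjusted p under 0.05 was found for 7 of the 37 (18.9%), beside 18.3% of all tested genes. Over all tested genes 59 rose and 227 fell, 20.6% higher among those called, a split that became 36.6% higher with median centring, 40.0% with the listed genes rescaled and 42.9% with the protein-coding genes rescaled. The median change of the 37 genes was -0.19, beside -0.07 for all tested genes, and 13 of them (35.1%) were lower in all 3 lines, beside 28.1% of all tested genes.

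The COP9 signalosome, which removes NEDD8 from cullins and so regulates cullin-based ligases such as the one COP1 joins, had 10 tested subunits. Of these 1 fell, 4 had an unadjusted p under 0.05 (18.3% of all tested genes) and 6 were lower in all lines (28.1% of all tested genes), with a median change of -0.27. COPS4 went from 15.2 to 12.8 CPM in LN-229, from 17.4 to 11.9 CPM in T98G and from 36.3 to 15.7 CPM in U251 (log2 change -0.64, SE 0.16, limma adjusted p = 0.0236, lower in 3 of 3 lines). The conditions overlapped, and the fall was strongest in U251, without which COPS4 was no longer called. The call was also lost without T98G, with no block, with no filter and under each other scaling. Among the other subunits, COPS2 had a change of -0.37 (SE 0.15, limma adjusted p = 0.184) and GPS1 of 0.03 (SE 0.14, adjusted p = 0.935).

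None of the 6 genes of the CUL4 ligase core passed the threshold, with a median change of -0.21. DDB1, the adaptor that links substrate receptors to CUL4, had a change of -0.21 (SE 0.16, limma adjusted p = 0.507), and CUL4B, one of the cullin scaffolds, of -0.25 (SE 0.15, adjusted p = 0.376). DDB1 changed by -0.06, -0.49 and -0.07 in LN-229, T98G and U251, whereas CUL4B was at -0.41 in T98G and -0.39 in U251 and at 0.07 in LN-229.

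Among 11 substrates of COP1 and the Tribbles proteins, none passed, and all 11 were lower in T98G, 6 in LN-229 and 5 in U251, where 79.3%, 46.3% and 53.2% of all tested genes were lower. JUN, a substrate of COP1, went from 21.5 to 21.1 CPM in LN-229, from 28.9 to 19.1 CPM in T98G and from 48.3 to 54.4 CPM in U251 (log2 change -0.15, SE 0.15, limma adjusted p = 0.636). ETS1, an ETS family transcription factor, had a change of -0.18 (SE 0.15, adjusted p = 0.529) and ACACA, the acetyl-CoA carboxylase targeted through TRIB3 and COP1, of 0.18 (SE 0.16, adjusted p = 0.563). These are RNA levels, whereas the ligase acts on the proteins, which were not measured in these libraries. The paper also reports mass spectrometry of proteins after siRNA knock-down in the same lines, and those values were not used here.

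None of the 5 kinases bound by Tribbles proteins passed (median change -0.07). The kinases AKT1 and AKT2 changed by -0.07 (SE 0.15, limma adjusted p = 0.854) and 0.05 (SE 0.14, adjusted p = 0.883). TRIB3, the stress-induced Tribbles gene, went from 9.91 to 10.6 CPM in LN-229, from 21.7 to 13.2 CPM in T98G and from 14.3 to 12.4 CPM in U251 (-0.26, SE 0.15, limma adjusted p = 0.368). Like TRIB1, it had its lowest ratio in T98G, 0.608 (0.561 to 0.659). ATF4 and DDIT3, transcription factors that induce TRIB3, had changes of -0.29 (SE 0.16, adjusted p = 0.314) and -0.29 (SE 0.16, adjusted p = 0.332).

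In the C/EBP family, none of 5 genes passed. CEBPA, the gene of C/EBP alpha, is likewise named after its values were seen. It was low in LN-229 (0.499 and 0.616 CPM) and T98G (0.608 and 0.564 CPM) and went from 4.71 to 2.65 CPM in U251. Its fitted change was -0.19 (SE 0.13, limma adjusted p = 0.442). CEBPG had a change of -0.27 (SE 0.15, limma adjusted p = 0.330) and CEBPB of -0.16 (SE 0.15, adjusted p = 0.598). CEBPD, named here after its values were seen, went from 8.09 to 16.0 CPM in LN-229, from 12.0 to 10.6 CPM in T98G and from 1.65 to 3.37 CPM in U251 (0.49, SE 0.16, limma adjusted p = 0.101). With a pseudocount of 0.1 it passed (0.60, adjusted p = 0.0260).

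**Figure D4:**
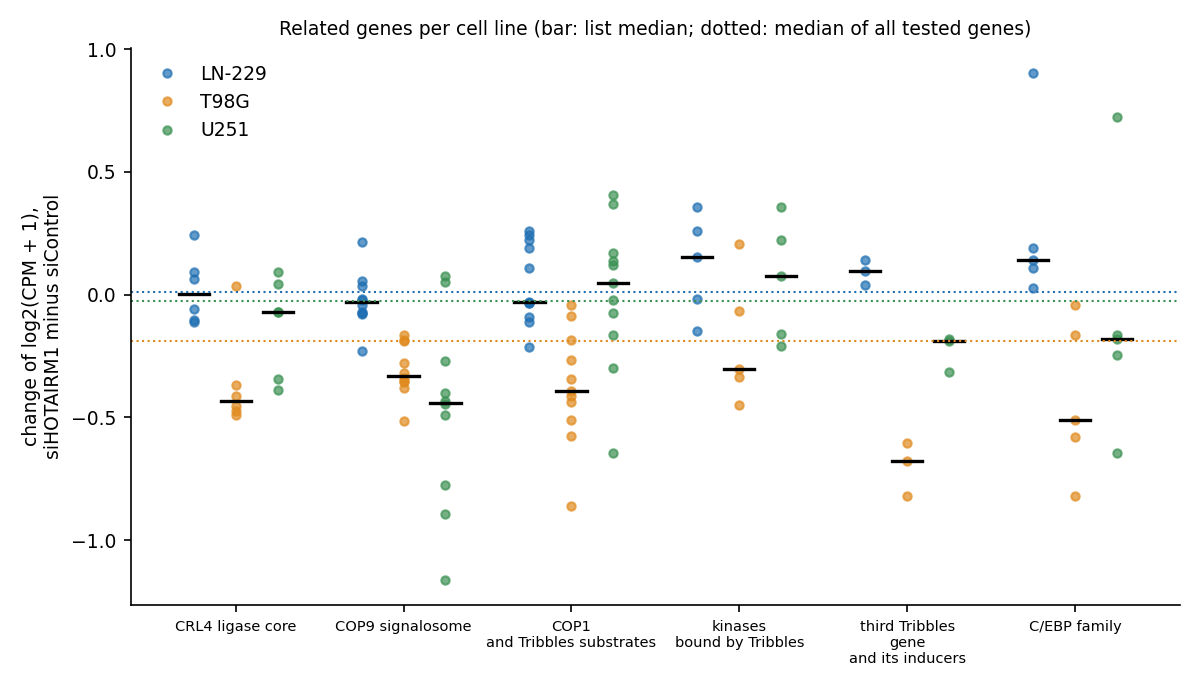
Change of log2(CPM + 1), siHOTAIRM1 minus siControl (vertical axis), of the 37 related genes by list and cell line, 1 point per gene; bars are list medians and dotted lines the median of all tested genes in that line. In T98G the medians of all 6 lists lie below 0 (-0.30 to -0.68), and in U251 that of the COP9 signalosome is lowest (-0.44).

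The tested genes with the most similar profile were named for each member, by the smallest root mean square difference of centred log2(CPM + 1) over the 6 libraries. For STK40 these were RPA1 (0.208), BMF (0.246) and SCAMP1 (0.265), beside a median of 0.693 over all tested genes. RPA1, a subunit of the single-stranded DNA-binding complex RPA, changed by 0.71, 0.33 and 0.85 in LN-229, T98G and U251, and BMF, a BH3-only protein, by 0.98, 0.64 and 0.73. For TRIB2 they were DOT1L (0.0794), FZD5 (0.101) and KIAA1161 (0.104), beside a median of 0.561. DOT1L, the histone H3 lysine methyltransferase, changed by 0.32, 0.52 and 0.58, close to TRIB2 in LN-229 and U251. For TRIB1 they were DPYSL2 (0.137), RP11-426C22.4 (0.156) and PPP1R3F (0.157), beside 1.04, and for COP1 they were KRR1 (0.0532), DDT (0.0586) and ATOX1 (0.0628), beside 0.424. These are descriptions over few libraries that share their lines and their depth.

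The nearest tested genes on either side of STK40 were SH3D21, at 10.3 kb on the opposite strand, and LSM10, at 5.31 kb on the same strand. SH3D21 went from 1.15 to 1.87 CPM in LN-229, from 2.52 to 2.30 CPM in T98G and from 2.80 to 8.99 CPM in U251. LSM10, a subunit of the U7 small nuclear ribonucleoprotein, went from 6.28 to 6.54 CPM, from 6.56 to 4.89 CPM and from 10.9 to 9.14 CPM. The change of SH3D21 was thus 1.39 in U251, close to the 1.44 of STK40, but -0.09 in T98G, and LSM10 was not higher outside LN-229. The nearest tested genes of the others lay 63.2 kb (NSMCE2, beside TRIB1) to 1890.0 kb (FAM84A, beside TRIB2) away. LPIN1 beside TRIB2 changed by -0.01, -0.32 and -0.31, whereas TRIB2 was higher in each line.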

How the data were processed

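RNA of 6 libraries was analysed, 1 per cell line (LN-229, T98G, U251) and condition. The libraries were prepared with TruSeq RNA Sample Preparation v2, which does not mark strand. The values are CPM deposited by the authors, who, per the paper's methods and the submitters' processing notes, trimmed the reads, aligned them to hg38 with STAR 2.4.1d in Partek Flow and quantified them with an Expectation-Maximization algorithm, with 0.0001 in place of 0. This algorithm can split reads between transcripts, and count tests were not used, since only 79.8 to 81.1% of values under 1000 reads were whole within 0.01 read. The 14294 of 59074 genes whose mean reached 1 CPM were tested on log2(CPM + 1) in R 4.3.3 by limma 3.58.1, using a mean-variance trend, Benjamini-Hochberg adjustment and a threshold of 0.05. The knock-down fit had the cell line as a block. The numbering of the samples follows the cell line. Deviations from the group means correlated over genes at r = 0.948 to 0.967 within a line and at -0.505 to -0.467 between lines. The deviations of a gene cancel out over the lines of a group, so the negative values between lines follow from the centring and nothing is read from them. The fit between lines had condition as a term. Counting intervals of levels are 95% Wilson intervals of the reads recovered from the worth of 1 read. Those of ratios are 95% normal intervals on the log scale, from the inverse read counts of both libraries. The fits were run on simulated data, with the same spread for every gene, as a check of the code. That simulation says nothing on how far the calls in these data hold. Annotation was GENCODE v44 on hg38, later than the authors' release, and RefSeq for promoters and the microRNA. All 4 genes were matched by symbol, COP1 by its older symbol RFWD2, and RefSeq promoters were matched for 3. Summaries were made with Python 3.11.15 and its packages pandas 2.3.3, numpy 2.4.6, matplotlib 3.10.9 and scipy 1.17.1.

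The genes and the lists of related genes were chosen with earlier results of these data known. Named beside the 4 genes are HOTAIRM1, the related genes past the threshold, TRIB3, JUN, up to 2 others per list by highest mean CPM, the 3 most similar genes of each member and the nearest tested genes. CEBPA and CEBPD were added after the values were seen. The alternatives were a pseudocount of 0.1, median centring, rescaling of the listed genes to a common total, no filter, no block, no condition term, no mean-variance trend and leaving out a line or library. Rescaling of the protein-coding genes was chosen after seeing the data.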

Additional observations from a re-analysis of the deposited data

Results flagged for a closer look

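TRIB1 had opposite directions in the cell lines: the change relative to the median of all genes was 0.09 in LN-229 and 0.38 in U251, but -0.28 in T98G. The difference was 0.37 for LN-229 minus T98G and -0.66 for T98G minus U251 on the log2 scale. With 1 library per line and condition, this difference between lines was not tested.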

How the results depend on the processing

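The direction of the knock-down change of STK40, TRIB2 and COP1 stayed the same with a pseudocount of 0.1, median centring and both rescalings. The remaining alternatives could not reverse it. Leaving out the filter, the block or the trend does not alter the fitted change, and all lines of these genes share a sign. The fitted change of TRIB1, near 0, became positive with a pseudocount of 0.1 (0.010), median centring (0.075), the listed genes rescaled (0.14) or the protein-coding genes rescaled (0.12). Leaving out 1 line gave 0.71 to 1.16 for STK40, -0.18 to 0.23 for TRIB1, 0.30 to 0.44 for TRIB2 and -0.39 to -0.15 for COP1. The count of genes past the threshold (286) became 683 with a pseudocount of 0.1, 41 with median centring, 25 with the listed genes rescaled, 7 with the protein-coding genes rescaled, 185 with no mean-variance trend and 0 with no filter on low values, and 0 to 270 without 1 line. Without T98G limma called 0 genes (1206 at an unadjusted p under 0.05) and without U251 149. Without the replicate block of the cell line, limma called 0 genes (29 unadjusted) and none of the 37 related genes, while with no filter 0 were called (2477 unadjusted). Of the related genes (1 called), 2 were called with a pseudocount of 0.1, 0 under the 3 other scalings or with no filter, and 0 to 1 without 1 line. The median change of all genes moved from -0.07 to 0.05 when the listed genes were rescaled. The cause of these shifts was not tested.

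Between lines, TRIB1 in LN-229 against T98G was not past the threshold with median centring (0.37), with the listed (0.43) or protein-coding genes rescaled (0.43), with no filter (0.46) or with no condition term (0.46). TRIB2 in LN-229 against T98G was not with no condition term (0.61), and in LN-229 against U251 not with median centring (-0.29), the listed (-0.066) or protein-coding genes rescaled (-0.16), no filter (-0.42) or no condition term (-0.42). STK40 in T98G against U251 reversed with median centring (0.070), the listed (0.24) and protein-coding genes rescaled (0.16), and COP1 with the listed (0.16) and protein-coding genes rescaled (0.066). COP1 in LN-229 against U251 passed with the listed genes rescaled (0.40). Leaving out 1 library gave, for LN-229 minus T98G, LN-229 minus U251 and T98G minus U251, -0.56 to 0.071, -0.75 to -0.023 and -0.51 to 0.22 for STK40, 0.11 to 0.81, 1.75 to 2.29 and 1.22 to 1.91 for TRIB1, 0.54 to 0.69, -0.56 to -0.28 and -1.17 to -0.90 for TRIB2, and 0.13 to 0.42, -0.17 to 0.25 and -0.44 to -0.023 for COP1. The lone library of a line was then assumed to vary like the others. With 3 lines and 1 library each, changes within a line have counting intervals only.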
